A study of Mus musculus with 8 samples.

Results

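The 36 genes described here encode the enzymes and transporters of glycolysis, regulators of its flux, and targets of the hypoxia response. They were chosen by symbol, and all 36 were found among the 37645 gene entries of the deposited table. Of these, 21 are glycolytic enzymes and transporters, 3 are regulators of flux (Pdk1, Pfkfb3 and Pfkfb4), 11 are hypoxia targets outside glycolysis, and the last is Hif1a, the oxygen-regulated subunit of the hypoxia factor. All 36 passed the filter on low values, which kept 20587 genes. The assay, 4sUDRB-seq, reads RNA made in a short window. The elongation inhibitor DRB holds RNA polymerase II near promoters, is washed away, and the RNA made afterwards is tagged with 4-thiouridine (4sU), coupled to biotin and captured. The cells were male feeder-free embryonic stem cells, derived from inner cell mass of 129 mice and grown in serum, LIF and high-glucose medium. Every library came from cells carrying conditional knockout alleles of Ythdc1, a nuclear reader of N6-methyladenosine. Cells received 4-hydroxytamoxifen (4OHT, 1 µg/ml) or its solvent DMSO during 4 days, then 100 µM DRB during 3 h, and 1 mM 4sU after the wash. The groups were 4OHT with a 0 min label, DMSO with a 0 min label, 4OHT with an 8 min label and DMSO with an 8 min label, with 2 libraries each. Which part of Ythdc1 is removed, what carries the tamoxifen-driven recombinase and how many clones were used are not given in the sources used here. The sample titles give the cells the number 1 at 0 min and 2 at 8 min, but numbers 1 and 2 both occur at each time in the column names. Each column was thus tied to a group and to no single sample. What the numbers in the titles stand for is not given in the sources used here, and by the titles the number and the labelling time cannot be told apart. Nothing states that libraries of a group came from separate cultures, so the p-values reflect only how far these libraries differ, which may be technical.

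Glycolysis splits glucose into pyruvate: transporters bring glucose in, hexokinases trap it by phosphorylation, phosphofructokinase commits it, and the later enzymes recover ATP before lactate dehydrogenase and the monocarboxylate transporters dispose of pyruvate as lactate. Where oxygen is scarce, prolyl hydroxylases no longer mark HIF-1α for destruction, and the HIF dimer switches on many of these genes together with genes of mitophagy, blood vessel growth and collagen modification. Embryonic stem cells in serum and LIF are known for a high rate of glycolysis even with oxygen present.

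HIF dimers bind a short core sequence, ACGTG or GCGTG, and the promoter windows of these genes were searched for it on both strands. RefSeq windows (GRCm38.p6, the patch release of mm10) were at hand for 33 of the 36 genes, and Slc2a3, Bnip3l and Ndrg1 had none. A match was present for 30 of the 33 (90.9%), against 46.7% of 27025 genes with a window. Gpi1, Tpi1 and Eno2 had no match in these windows. Counted by window, 79.6% of the members' 49 windows and 43.8% of all 32851 windows held the core, and 12.2% and 7.15% held CACGTG, which contains it on both strands. The stretches below lie upstream of the annotated gene and are written 5′ to 3′ on the gene's strand, with each core match in capitals (CACGT and CACGC are the cores read from the other strand). The first set is from genes that were higher with 4OHT relative to the other genes at 8 min, the second from genes that were lower, and the third from members that did not pass the test.
Pfkl: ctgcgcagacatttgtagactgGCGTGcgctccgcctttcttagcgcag
P4ha2: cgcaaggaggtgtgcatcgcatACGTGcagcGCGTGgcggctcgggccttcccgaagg
Aldoc: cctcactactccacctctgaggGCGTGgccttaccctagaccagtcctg
Pfkm: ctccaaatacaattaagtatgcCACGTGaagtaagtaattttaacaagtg
Egln1: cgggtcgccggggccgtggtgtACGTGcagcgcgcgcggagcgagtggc
Slc2a1: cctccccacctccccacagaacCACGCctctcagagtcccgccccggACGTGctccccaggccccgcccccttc
Pgk1: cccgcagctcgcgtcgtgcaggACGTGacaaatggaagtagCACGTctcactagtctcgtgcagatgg
Slc16a1: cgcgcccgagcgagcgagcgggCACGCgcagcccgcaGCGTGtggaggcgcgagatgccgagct
Bnip3: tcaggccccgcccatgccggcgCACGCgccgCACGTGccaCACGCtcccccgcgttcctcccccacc
They lie at chr10:78009880-78009928 (minus strand) for Pfkl, chr11:54100824-54100881 (plus) for P4ha2, chr11:78323001-78323049 (plus) for Aldoc, chr15:98092431-98092480 (plus) for Pfkm and chr8:124949296-124949344 (minus) for Egln1. Those of Slc2a1, Pgk1, Slc16a1 and Bnip3 lie at chr4:119108662-119108735 (plus), chrX:106186928-106186995 (plus), chr3:104638493-104638556 (plus) and chr7:138909579-138909645 (minus). Among the members with a window, the core was present in 2 of 2 genes higher with 4OHT, 7 of 8 lower and 21 of 23 that did not pass. A match is a description of the letters and not a measured binding site.

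Recovered depth ranged between 46.3 M and 61.4 M reads (M, mega) for the 0 min label, and between 93.1 M and 134 M for the 8 min label. On the deposited scale nearly all genes lay higher with 4OHT at 8 min, with a median log2 fold change of 1.43 over all genes tested. The sums of the spike-in values were 4323 and 6391 in the 4OHT libraries at 8 min, against 1028 and 4194 in the DMSO libraries. As a share of reads, the spike-ins were 0.0412% and 0.0386% with 4OHT, against 0.0271% and 0.0674% with DMSO, which overlap. Each 8 min library was also scaled by its median ratio, with factors of 1.32 and 2.10 for the 4OHT libraries and 0.479 and 0.754 for the DMSO libraries. "Scaled" below means these values, and a scaled fold change is relative to the other genes. Ythdc1 itself had deposited values of 2696 and 5168 in the 4OHT libraries at 8 min, against 1409 and 2708 in the DMSO libraries. Its log2 fold change was 0.93 on the deposited scale (limma adjusted p = 0.17) and −0.53 after scaling (limma adjusted p = 0.00258), and reads over the whole gene check an unstated deletion poorly. All 10 embryonic stem cell markers were measured, and their values summed to 8238 and 13144 with 4OHT and to 3655 and 5344 with DMSO at 8 min. Relative to the other genes 1 of the 10 was higher and 3 were lower, among them Nanog (−1.01), where 18.6% of all genes were called higher and 16.7% lower. Markers of the 2-cell-like state, a rare state of such cultures, summed to 328 and 496 with 4OHT and to 11.4 and 20.2 with DMSO, and 4 of 4 tested were higher after scaling. These 4 reached 10, the limit of the filter, only in 4OHT libraries. They were thus tested only through the treatment where they were high, so their count is no independent test. The other sums were smaller, with no marker at 0 in every library: fibroblast markers reached 35.2 and 83.0 with 4OHT and 28.2 and 57.1 with DMSO, primitive endoderm markers 81.6 and 139 against 34.3 and 45.0, and trophoblast markers 91.4 and 146 against 46.8 and 66.9. After scaling, 2 of 3 fibroblast markers tested were lower with 4OHT (median log2 fold change −1.04), as was 1 of 3 trophoblast markers (median −0.60), and 0 of 3 primitive endoderm markers passed by limma, also at an unadjusted p under 0.05 (median 0.07). The part of the 2-cell-like, fibroblast and trophoblast signals in the results below was not tested.

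At 8 min the glycolysis and hypoxia genes did not move as a block. Relative to the other genes, 3 of the 36 were higher with 4OHT (Bnip3l, P4ha2 and Pfkl), 10 were lower (Aldoc, Pfkp, Slc2a3, Aldoa, Slc16a3, Ndrg1, Tpi1, Ldha, Pfkm and Egln1), and 23 did not pass. Over all genes tested, 18.6% were called higher and 16.7% lower in that comparison. P4ha2 passed the filter on low values only through 4OHT libraries, here and on the deposited scale. The lower calls lay mostly among the glycolytic genes: of the 21 enzymes and transporters 8 were lower and 1 was higher, with a median log2 fold change of −0.21. Of the 11 other hypoxia targets 2 were higher and 2 lower, with a median of −0.13, and of the 3 flux regulators none passed, with a median of −0.07. The median over all genes tested was −0.0011. The difference between the glycolytic and the other hypoxia genes was not tested. In bulk RNA, fewer cells that make a transcript and less of it per cell cannot be told apart. With 2 libraries a group, the scaled 4OHT libraries lay below both DMSO libraries for 17 genes, above both for 6, and overlapped them for 13, where 33.7% of all genes lay below and 33.6% above. When all 8 libraries were scaled and fitted together, with a spread shared with the 0 min libraries, 0 members were higher and 1, Pfkp, was lower, where 0.00971% of all genes were called higher and 0.141% lower. Without the filter on low values limma called no member and no gene of the whole table. On the same 4 libraries, edgeR and DESeq2 called 3 members higher and 10 lower each, where edgeR called 18% of all genes higher and 16.4% lower, and DESeq2 18% and 16.5%.

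**Figure D1:**
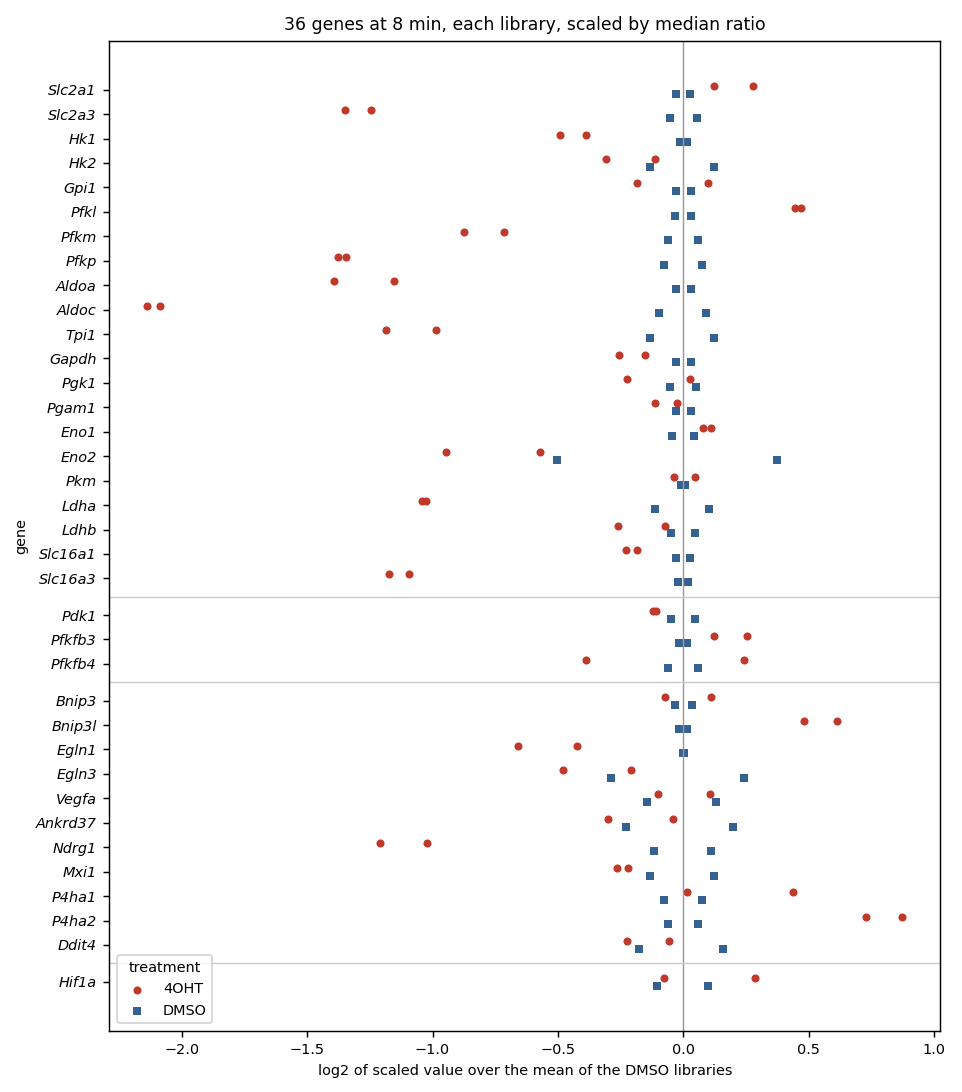
Each of the 4 libraries with an 8 min label is drawn for all 36 genes as the log2 of its scaled value over the mean of the DMSO libraries (horizontal axis), with 4OHT libraries as red circles and DMSO libraries as blue squares. Aldoc sits farthest to the left, Pfkp, Slc2a3, Aldoa, Tpi1, Slc16a3, Ndrg1 and Ldha follow it, and P4ha2, Bnip3l and Pfkl are the genes that passed on the right.

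On the deposited scale, 13 of the 36 genes were higher with 4OHT by limma and none lower, where 58.8% of all genes were called higher and 0.131% lower. At an unadjusted p under 0.05, 23 members were higher and none lower, against 68.6% and 0.175% of all genes. These 13 were 6 glycolytic genes (Slc2a1, Gpi1, Pfkl, Pgk1, Pgam1 and Eno1), Pfkfb3, Hif1a, and Bnip3, Bnip3l, Vegfa, P4ha1 and P4ha2. The median log2 fold change was 1.26 for the glycolytic genes and 1.32 for the other hypoxia targets, against 1.43 for all genes. The count fell to 0 when DMSO 8 min library 1 or 4OHT 8 min library 2 was left out, and to 0 with edgeR or DESeq2 on the recovered reads, where DESeq2 called 6 lower and edgeR 0. Over all genes, DESeq2 called 1.31% higher and 2.64% lower, and edgeR 0.00971% higher and 0.121% lower. Both tools apply their own scaling, which removes a common shift by construction, so their counts are not on the deposited scale. Deposited 4OHT and DMSO values overlapped for 9 members, and in the other 27 both 4OHT libraries were above both DMSO libraries, as in 90.3% of all genes, with 0.481% below. The 9 were Slc2a3, Pfkm, Pfkp, Aldoa, Aldoc, Tpi1, Ldha, Slc16a3 and Ndrg1, all called lower after scaling. Their deposited log2 fold changes ran from −0.62 (Aldoc) to 0.67 (Pfkm), and none passed. Egln1, also called lower after scaling, lay at 0.92. A fall after scaling is thus relative to the other genes, whose median was 1.43.

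Glucose enters these cells through Slc2a1, the widespread basal transporter, and Slc2a3, a transporter of high affinity. They differed in call. Slc2a3 (chromosome 6, 122727809 to 122802363) had scaled values of 837 and 900.1 in the 4OHT libraries, against 2051 and 2212 in the DMSO libraries. Both 4OHT libraries were well below both DMSO libraries, a log2 fold change of −1.29 ± 0.11 (SE; limma adjusted p = 6.45e-09). Before scaling, its values were 1105 and 1887 with 4OHT and 983 and 1667 with DMSO, which overlap, where the median gene shifted by 1.43 (log2). Slc2a1 (chromosome 4, 119108745 to 119137330) had scaled values of 1848 and 1659 with 4OHT, against 1551 and 1493 with DMSO. Its groups did not overlap either, but the change of 0.20 did not pass (limma adjusted p = 0.169).

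Upper glycolysis held 6 of the 13 calls, 1 higher and 5 lower among 9 genes, with a median log2 fold change of −0.79. Aldoc (chromosome 11, 78323073 to 78327781), the aldolase best known from brain, was the lowest of all 36. Its scaled values were 13.8 and 13.3 with 4OHT, against 54.8 and 62.4 with DMSO. The 4 libraries formed a pair of tight groups far apart, with a log2 fold change of −2.03 ± 0.23 (SE; limma adjusted p = 4.97e-07), at percentile 0.544 of all genes tested. Even on the deposited scale Aldoc had values of 18.2 and 27.9 with 4OHT and 26.2 and 47.1 with DMSO, the only member with a negative log2 fold change there (−0.62; limma adjusted p = 0.335).

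The ubiquitous aldolase followed the same direction. Aldoa (chromosome 7, 126795234 to 126800994) had scaled values of 181 and 213 with 4OHT, against 483 and 463 with DMSO, and fell by 1.27 on the log2 scale (limma adjusted p = 2.44e-08). Triose phosphate isomerase, Tpi1, which interconverts the products of aldolase, had 119 and 104 with 4OHT, against 257 and 215 with DMSO, and fell by 1.07 (limma adjusted p = 2.19e-06). Neither gene's groups overlapped after scaling, and both did on the deposited scale.

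The 3 phosphofructokinase genes, which encode subunits of the committing enzyme, went in different directions. Pfkl (chromosome 10, 77986947 to 78009807), the liver-type subunit, had scaled values of 173 and 176 with 4OHT, against 130 and 124 with DMSO. It was higher by 0.46 ± 0.13 (SE; limma adjusted p = 0.00963), but did not pass without 4OHT 8 min library 1 (adjusted p = 0.0523) or library 2 (adjusted p = 0.0588). Pfkp, the platelet-type subunit (chromosome 13, 6579874 to 6649060), had 189 and 185 with 4OHT, against 505 and 455 with DMSO. It fell by 1.35 (limma adjusted p = 7.14e-09). Pfkm, the muscle-type subunit, had 126 and 140.2 with 4OHT, against 220.3 and 239.8 with DMSO, and fell by 0.79 (limma adjusted p = 5.43e-05). None of the 3 had overlapping groups after scaling.

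The remaining upper glycolytic genes did not pass. Hexokinase 1, Hk1, had a log2 fold change of −0.43 (limma adjusted p = 0.0933), with 36.7 and 39.5 in the 4OHT libraries and 51.1 and 52.1 in the DMSO libraries. Hexokinase 2, Hk2, lay at −0.21 (adjusted p = 0.174) with overlapping groups. Gpi1, which isomerises glucose 6-phosphate, lay at −0.04 (adjusted p = 0.815).

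In lower glycolysis, the steps that yield ATP, none of the 6 genes passed, and their median log2 fold change was −0.08. With the values of their named copies added, Pgk1, Pgam1 and Eno1 were lower, and Eno1 turned direction, as described with the copies. Gapdh (chromosome 6, 125161852 to 125166467) had the smallest p of the group. Its scaled values were 609 and 566 with 4OHT, against 691 and 664 with DMSO. These did not overlap, but the change of −0.21 ± 0.11 (SE) did not pass (limma adjusted p = 0.145). Pgk1, the kinase that makes ATP from the product of Gapdh, lay at −0.10 (adjusted p = 0.546), Pgam1, the next mutase, at −0.07 (adjusted p = 0.658), and enolase 1, Eno1, at 0.10 (adjusted p = 0.527). Pkm, pyruvate kinase, had 3134 and 2959 with 4OHT, against 3056 and 3023 with DMSO, a change of 0.0029 (adjusted p = 0.989). Its 4 libraries interleaved. Neuronal enolase, Eno2, was close to the filter with scaled values of 4.83 and 6.25 with 4OHT and 12.03 and 6.56 with DMSO, and its change of −0.61 ± 0.40 (SE) did not pass (adjusted p = 0.248). On the deposited scale Eno2 reached the filter's limit of 10 only in 4OHT libraries.

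Of the lactate genes, Ldha and Slc16a3 were lower and Ldhb and Slc16a1 did not pass. Slc16a3, the lactate exporter typical of glycolytic cells (chromosome 11, 120948484 to 120959000), had scaled values of 61.4 and 64.9 with 4OHT, against 137 and 140.5 with DMSO. This was a log2 fold change of −1.12 ± 0.15 (SE; limma adjusted p = 4.62e-06), and its groups were far apart. Ldha, the dehydrogenase subunit that favours lactate production (chromosome 7, 46842274 to 46855627), had 196 and 198 with 4OHT, against 434 and 374 with DMSO, and fell by 1.03 (limma adjusted p = 5.85e-07). The subunit that favours the reverse reaction, Ldhb, lay at −0.17 (adjusted p = 0.256). Slc16a1, the widespread monocarboxylate carrier, had 1567 and 1519 with 4OHT, against 1747 and 1814 with DMSO, a change of −0.21 (adjusted p = 0.15) that passed only with a minimum value of 100 in the filter (adjusted p = 0.0445).

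The flux regulators did not pass after scaling. Pfkfb3, which makes the activator of phosphofructokinase, had the smallest p of the 3. Its scaled values were 291 and 265 with 4OHT, against 241 and 246 with DMSO, a log2 fold change of 0.19 ± 0.12 (SE; limma adjusted p = 0.23) without overlap. Its relative Pfkfb4 lay at −0.07 (adjusted p = 0.871) and Pdk1, a kinase that inhibits pyruvate dehydrogenase, at −0.11 (adjusted p = 0.435).

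Among the hypoxia targets outside glycolysis, the related mitophagy receptors gave different calls. Bnip3l (chromosome 14, 66985238 to 67008877) had scaled values of 451 and 413 with 4OHT, against 292 and 299 with DMSO, and was higher by 0.54 ± 0.11 (SE; limma adjusted p = 0.000646). Bnip3, its paralogue, had 157 and 138 with 4OHT, against 149 and 142 with DMSO. The groups of Bnip3l were apart and those of Bnip3 overlapped, with a change of 0.02 (limma adjusted p = 0.927).

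The oxygen sensors are prolyl hydroxylases that tag HIF-1α for destruction and are themselves induced by HIF. Egln1 (chromosome 8, 124908587 to 124949254), the main sensor, had 82.4 and 70.0 with 4OHT, against 110.3 and 110.8 with DMSO. It fell by 0.54 (limma adjusted p = 0.00976), but did not pass without 4OHT 8 min library 2 (adjusted p = 0.112). Egln3 lay at −0.32 (adjusted p = 0.243) and passed only without DMSO 8 min library 2 (−0.58; adjusted p = 0.0367).

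Of the 7 other hypoxia targets 1 was higher and 1 lower. P4ha2, a collagen prolyl hydroxylase subunit (chromosome 11, 54100924 to 54131668), had scaled values of 32.6 and 29.5 with 4OHT, against 18.5 and 17.0 with DMSO. The 4OHT libraries were above the DMSO libraries by 0.77 ± 0.25 (SE; limma adjusted p = 0.0194). Of the DMSO libraries, only 8 min library 2 (deposited value 12.8) reached 10, the limit of the filter. P4ha2 was thus tested only through the treatment where it was high, so its call is no independent test. The call was lost without 4OHT 8 min library 1 (adjusted p = 0.17) or library 2 (adjusted p = 0.0737). Ndrg1, a stress-induced differentiation gene (chromosome 15, 66929318 to 66969641), had 21.4 and 18.9 with 4OHT, against 40.2 and 47.0 with DMSO, and fell by 1.07 (limma adjusted p = 0.000905) with groups well apart. The other collagen hydroxylase subunit, P4ha1, lay at 0.23 (adjusted p = 0.179), and passed without 4OHT 8 min library 2 (0.44; adjusted p = 0.027). Vegfa, the blood vessel growth factor, lay at 0.0087 (adjusted p = 0.979), Ankrd37 at −0.15 (adjusted p = 0.628), the Myc antagonist Mxi1 at −0.24 (adjusted p = 0.128) and Ddit4, an inhibitor of mTOR signalling, at −0.13 (adjusted p = 0.576).

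Hif1a (chromosome 12, 73901324 to 73947554) encodes the subunit that these targets answer to, and its protein is controlled mainly by degradation. Its scaled values were 2170.0 and 2793 with 4OHT, against 2126 and 2453 with DMSO. The groups overlapped, and the log2 fold change of 0.11 ± 0.13 (SE) did not pass (limma adjusted p = 0.548). On the deposited scale it had 2866 and 5854 with 4OHT and 1019 and 1849 with DMSO, a log2 fold change of 1.58 (limma adjusted p = 0.0262), close to that of the median gene.

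The label of 8 min was then set against that of 0 min within each treatment, on the deposited scale. A 0 min library has no labelling time, so its reads are not RNA tagged after DRB release. With 4OHT, 24 of the 36 genes were higher at 8 min and none lower, where 74% of all genes were called higher and 0.826% lower. With DMSO, 9 were higher and none lower, where 47% were called higher and 1.95% lower. By limma no member was lower at an unadjusted p under 0.05 either, against 0.923% of all genes with 4OHT and 3.06% with DMSO, whereas edgeR and DESeq2, with their own scaling, called 14 and 16 lower with 4OHT and 11 and 13 with DMSO. Over all genes, edgeR and DESeq2 called 26.9% and 30.5% lower with 4OHT and 26.8% and 29.3% with DMSO. The 9 were Pfkm, Ldhb, Slc16a1, Pfkfb4, Bnip3l, Ankrd37, P4ha1, Ddit4 and Hif1a. Pfkfb4 and Ankrd37 reached 10, the limit of the filter, only in 8 min libraries. P4ha2, called higher with 4OHT, reached it at 0 min only in 4OHT library 2 (15.5). These genes were tested only through the time at which they were high, so their calls are no independent test. The median log2 change of the glycolytic genes was 1.76 with 4OHT and 0.60 with DMSO, against 2.49 and 1.25 over all genes. That of the other hypoxia targets was 2.24 with 4OHT and 0.63 with DMSO.

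Of the 36 genes, Hif1a had the highest ratio of 8 over 0 min in DMSO cells. Its deposited values in the 4OHT libraries were 2866 and 5854 at 8 min, against 70.9 and 116 at 0 min, and in the DMSO libraries 1019 and 1849 at 8 min, against 78.0 and 62.6 at 0 min. The mean at 8 min was 46.7 times that at 0 min with 4OHT and 20.4 times with DMSO (limma adjusted p = 1.36e-17 with 4OHT and 9.96e-11 with DMSO). The ratios were 27.6 with 4OHT and 11.2 with DMSO for Slc16a1, and 22.7 with 4OHT and 8.97 with DMSO for P4ha1. Ankrd37 passed the filter only through its 8 min libraries, so its calls here are no independent test. Its 0 min values rest on 36 and 12 reads with 4OHT and 42 and 74 with DMSO. Its ratios of 50.8 with 4OHT and 7.68 with DMSO are thus imprecise. The 8 min libraries of these genes were all above the 0 min libraries. When all 8 libraries were scaled by median ratio, so that each gene was set against the others, Slc16a1, Ankrd37, P4ha1 and Hif1a were higher at 8 min in both treatments, where 30.3% of all genes were called higher and 27.3% lower with 4OHT, and 31% and 26.2% with DMSO.

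Other members changed less with label than the median gene. In both treatments 10 genes lay lower at 8 min relative to the other genes: Slc2a3, Hk1, Pfkp, Aldoa, Aldoc, Tpi1, Eno2, Slc16a3, Pfkfb3 and Bnip3. On the deposited scale their ratios of 8 over 0 min were 0.692 to 2.09 with 4OHT, highest for Pfkfb3, and 0.603 to 1.15 with DMSO. Aldoa had deposited values in the 4OHT libraries of 238 and 446 at 8 min, against 429 and 356 at 0 min, and in the DMSO libraries of 232 and 349 at 8 min, against 452 and 309 at 0 min. Slc2a3 had in the 4OHT libraries 1105 and 1887 at 8 min, against 1282 and 1425 at 0 min, and in the DMSO libraries 983 and 1667 at 8 min, against 1307 and 1074 at 0 min. For both genes the 8 and 0 min values overlapped in each treatment. Of the 21 glycolytic genes 10 were lower and 1 higher with 4OHT, and 9 were lower and 2 higher with DMSO, in this scaled comparison. Of the 11 other hypoxia targets 3 were lower and 3 higher with 4OHT, and 1 lower and 2 higher with DMSO.

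**Figure D2:**
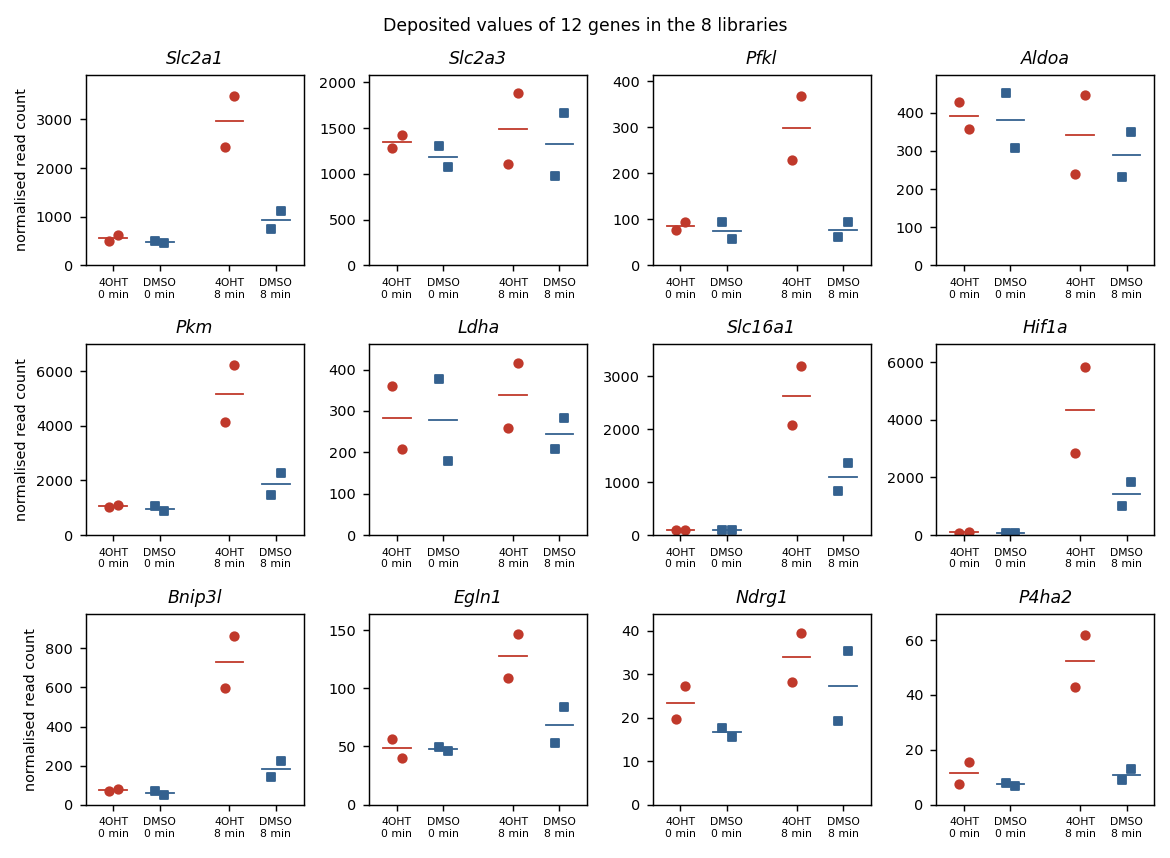
Deposited values (normalised read count, vertical axis from 0) of 12 of the genes are drawn for each of the 8 libraries, with 4OHT as red circles, DMSO as blue squares and a line at each group mean of 2 libraries. Hif1a and Slc16a1 were near the axis at 0 min and far above it at 8 min, whereas Aldoa, Ldha and Slc2a3 had values of the same range at both times.

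The genes that were lower with 4OHT at 8 min were mostly those with little change between 0 and 8 min. Both comparisons use the same 8 min libraries, so they are given side by side and not as support for one another. The 10 lower genes had a median ratio of 8 over 0 min of 1.15 with 4OHT and 1.09 with DMSO, the 23 that did not pass 4.86 and 1.90, and the 3 higher genes 4.54 and 1.48. Pfkm was the exception among the lower genes, with ratios of 6.95 with 4OHT and 4.12 with DMSO. Egln1 had 2.65 with 4OHT and 1.43 with DMSO. The span of the gene did not order them in the same way: it had a median of 26.6 kb (3.57 to 74.6 kb) for the lower genes, 22.8 kb (2.10 to 111 kb) for those that did not pass and 23.6 kb (22.9 to 30.7 kb) for the higher genes. How far RNA already present at 0 min makes up the 8 min values of the lower genes was not tested.

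**Figure D3:**
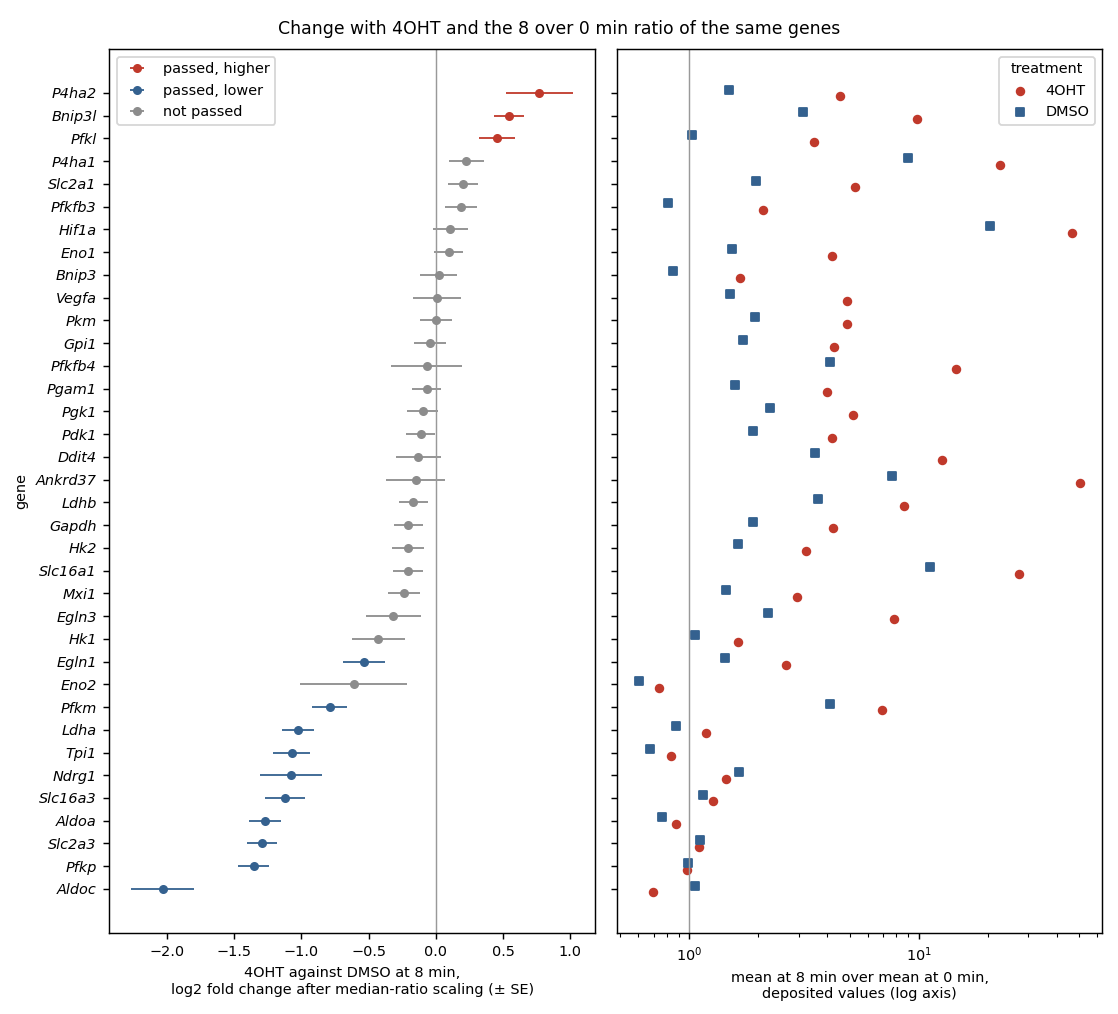
Left, the scaled log2 fold change of 4OHT against DMSO at 8 min for the 36 genes with its SE, in red where the gene was called higher, blue where called lower and grey where it did not pass. Right, the mean deposited value at 8 min over that at 0 min for the same genes on a log axis, with 4OHT as red circles and DMSO as blue squares. The 8 genes with the most negative change have ratios between 0.677 and 1.64 in both treatments, and the next, Pfkm, has 6.95 with 4OHT and 4.12 with DMSO.

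At 0 min limma called no member higher or lower with 4OHT, where 0% of all genes were called higher and 0% lower. At an unadjusted p under 0.05, it called 0 members but 493 genes (2.39%) higher and 55 (0.267%) lower. DESeq2 called 87 genes (0.423%) higher and 40 (0.194%) lower and edgeR none, and no member was among them. The median log2 fold change of the 36 genes was 0.13, against 0.28 for all genes. Both 4OHT libraries were above both DMSO libraries for 5 members (Gpi1, Eno1, Eno2, Bnip3l and Ndrg1), below them for 3 (Egln3, Ankrd37 and Ddit4), and the groups overlapped for 28, where 15.4% of all genes lay above and 3.54% below. Eno2 passed the filter only through the treatment in which it lay above, since its values reached 10 in 4OHT libraries alone. Ankrd37, with the smallest p, had only 1.54 and 0.967 with 4OHT, against 1.76 and 5.02 with DMSO, on the deposited scale (log2 fold change −0.87; limma adjusted p = 1). The difference between the effects of 4OHT at 8 and at 0 min did not pass for any member, where 0.389% of all genes were called higher and 0% lower. At an unadjusted p under 0.05, 5 of the 36 members were higher (Ankrd37, Pfkl, Ddit4, Vegfa and Bnip3l) and none lower, against 17.5% of all genes higher and 0.107% lower, with Ankrd37 the largest at 2.14 (limma adjusted p = 0.239).

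Several glycolytic genes have processed copies elsewhere in the genome that the table lists under their own names, and how reads matching both were handled is not given in the sources used here. Values of such genes are uncertain. The copies found by name were lower with 4OHT at 8 min after scaling in 8 of 9 tested cases, where 16.7% of all genes were called lower. Eno1b, an intronless near copy of Eno1, had deposited values of 1318 and 2313 with 4OHT, against 1079 and 1563 with DMSO, at 8 min. Its scaled change was −1.04 ± 0.11 (SE; limma adjusted p = 1.93e-07), whereas that of Eno1 was 0.10. Adding Eno1b to Eno1 turned the gene's change to −0.53 (adjusted p = 0.00137).

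The other copies lay below their genes as well. Pgk1-rs7 fell by 1.62 (limma adjusted p = 7.66e-10), and Pgk1 with it fell by 0.69 (adjusted p = 3.58e-05), against −0.10 for Pgk1 alone. Pgam1-ps2 fell by 1.00 (limma adjusted p = 9.9e-07), and Pgam1 with its copies fell by 0.30 (adjusted p = 0.0327), against −0.07 alone. Gapdh-ps15 fell by 0.65 (limma adjusted p = 0.00326), and Gapdh with its copies lay at −0.26 and did not pass (adjusted p = 0.0659). For genes already lower, the copies moved the same way: Ldha-ps2 fell by 2.00, Aldoart1 by 1.63, Aldoart2 by 1.74 and Gm5389 by 1.37, and with copies Ldha lay at −1.15 and Aldoa at −1.48. Bnip3l-ps was the copy that did not pass (−0.36; limma adjusted p = 0.133), and Bnip3l with it remained higher (0.42; adjusted p = 0.00457). With copies added, 3 members were higher and 13 lower, where the main comparison called 18.6% of all genes higher and 16.7% lower.

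**Figure D4:**
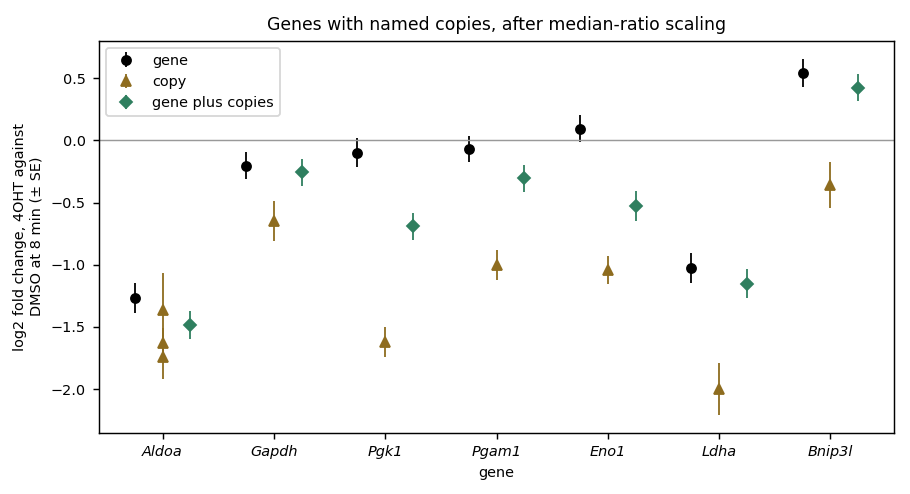
The scaled log2 fold change of 4OHT against DMSO at 8 min (vertical axis, with SE) is drawn for 7 genes with named copies, as black circles for the gene alone, brown triangles for each copy tested and green diamonds for the gene with its copies added. Every triangle lies below its gene's circle, and the diamonds of Pgk1, Pgam1 and Eno1 lie below 0 and pass the test, which their circles do not.

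Other genes of these pathways were read from lists, in the scaled comparison at 8 min, where 18.6% of all genes tested were called higher and 16.7% lower. Of 18 components of the HIF pathway 7 were higher and 2 lower, with a median log2 fold change of 0.01. Epas1, which encodes HIF-2α, was higher by 1.24 (limma adjusted p = 4.73e-07) and the ubiquitin ligase gene Siah1a by 0.92 (adjusted p = 1.12e-06). Hif3a, a HIF subunit gene, was lower (−0.97; adjusted p = 0.000498), as was the chaperone gene Hsp90aa1 (−0.45; adjusted p = 0.0087). Of 28 further hypoxia targets tested, 7 were higher and 5 lower, with a median of 0.20. They included the carbonic anhydrase gene Car12 (1.74; limma adjusted p = 1.16e-07) and the cyclin gene Ccng2 (1.02; adjusted p = 2.04e-06) on the high side, and glycogen synthase, Gys1 (−1.28; adjusted p = 1.09e-08), and the lysyl oxidase gene Loxl2 (−0.96; adjusted p = 0.00586) on the low side.

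Among 23 other members of glycolytic gene families tested, 5 were higher and 5 lower, with a median of 0.03. For this list and the next 2, the shares over all genes were again 18.6% higher and 16.7% lower. Fbp1, an enzyme of gluconeogenesis, was higher (1.36; limma adjusted p = 0.0129), as was the carrier Slc16a4 (0.95; adjusted p = 0.000107). Ldhc, the germ-cell lactate dehydrogenase gene, was lower (−1.17; adjusted p = 0.0479). Of 10 pentose phosphate genes 1 was higher, Rpia (1.04; limma adjusted p = 1.21e-05), and 2 were lower, Pgd (−0.46; adjusted p = 0.013) and Tkt (−0.42; adjusted p = 0.0137). Of 28 genes from pyruvate to the citric acid cycle 4 were higher, among them pyruvate carboxylase, Pcx (0.75; limma adjusted p = 2.28e-05), and the pyruvate carrier gene Mpc1 (0.53; adjusted p = 0.0119). Another 5 of these 28 were lower, with the pyruvate dehydrogenase phosphatase gene Pdp2 at −2.11 (limma adjusted p = 5.32e-10) and the isocitrate dehydrogenase gene Idh2 at −0.95 (adjusted p = 0.000563).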

How the data were processed

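The authors deposited one table for 8 libraries of 4sU-labelled RNA, with 38971 entries (37645 genes, 60 spike-in RNAs and 1266 repeat and structural RNA types). Per the submitters' processing notes, the tools were STAR 2.7, Bowtie2 and bcl2fastq with the mm10 build; their roles are not given. The deposited values are a signal in which every library's reads were divided by a constant (8.095 to 29.49). Undoing the division gave whole reads for 99.997% to 100% of the entries, with a tolerance of 0.01. The meaning of that constant, the strand counted and the treatment of multi-mapped reads are not given in the sources used here. Repeat and structural entries took 20.1% to 31.6% of reads. They and the spike-in entries stayed out of the tests. Reads are not independent molecules, and members with few reads or low values (Ankrd37, Eno2 and Pfkfb4) are imprecise.

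A column whose name lacks 4OHT was taken as DMSO. Genes that reached 10 in 2 or more of the 8 libraries were tested two-sided as log2(value + 1), using limma 3.58.1 (R 4.3.3) with a trended empirical Bayes prior, and Benjamini-Hochberg adjusted p-values under 0.05 over all 20587 genes were called; fold changes on this scale understate those of low genes. All 8 libraries, with 1 mean per group, were fitted for the deposited scale. The comparison relative to the other genes used the 4 libraries with an 8 min label, each divided by its median-ratio factor. Alternatives were pseudocounts of 0.5 and 5, no filter or a minimum of 100, quantile normalization, other variance models, the library number as a block, each library left out, other scalings, and count tests of the recovered reads by DESeq2 1.42.0 and the quasi-likelihood method of edgeR 4.0.16. Scaling by spike-in sums and adding each gene's named copies were chosen after seeing the data. Scripts were tested on simulated data.

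The members, lists, tests and scaling were chosen with earlier results of these data known. Library values are given for Hif1a and, by role, for the called member that changed most in each direction (smallest p where none was called), and up to 2 genes each way are named from each list; library values of other members (such as Slc2a1, Aldoa, Pfkp, Ldha and Pkm), and the copies, were added after their values were seen. Copies were taken by names that begin with a member's symbol and by the annotation. A gene of the lists is not reported here.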

Additional observations from a re-analysis of the deposited data

How the results depend on the processing

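The counts of called members depended on the scaling and on single libraries. On the deposited scale at 8 min, the 13 members higher with 4OHT became 4 without the filter, 26 with the library number as a replicate block, and 0 with quantile normalization, median-ratio scaling of all 8 libraries, spike-in scaling, edgeR or DESeq2. Over all genes, 58.8% were called higher in the main setting, 82.7% with the block, 0.00971% with edgeR and 1.31% with DESeq2. Leaving out each library gave 0 to 23 members: 0 without DMSO 8 min library 1 or 4OHT 8 min library 2, 5 without DMSO 0 min library 1, 6 without DMSO 0 min library 2, and 23 without either 4OHT 0 min library. Lower members, 0 in the main setting, numbered 1 with quantile normalization, 1 with median-ratio scaling of all 8 libraries and 6 with DESeq2. DESeq2 called 2.64% of all genes lower. Relative to the other genes at 8 min, the 3 higher and 10 lower members became 0 and 0 without the filter and 0 and 1 with all 8 libraries scaled and fitted together. Without the filter no gene of the whole table was called, and in the joint fit 0.00971% were higher and 0.141% lower. Leaving out each library gave 1 to 3 higher and 9 to 12 lower, with 1 higher without 4OHT 8 min library 1. With label time, the 24 members higher within 4OHT became 5 with quantile normalization, median-ratio scaling or edgeR, 6 with DESeq2 and 9 with spike-in scaling, and the 0 lower became 16, 14, 14 and 16 with quantile normalization, median-ratio scaling, edgeR and DESeq2. Of all genes within 4OHT, median-ratio scaling, edgeR and DESeq2 called 30.3%, 27.6% and 30.1% higher. They called 27.3%, 26.9% and 30.5% lower. Within DMSO, the 9 higher became 4 with quantile normalization, 16 with the replicate block, 5 with median-ratio scaling, 3 with edgeR and 5 with DESeq2, and 4 to 9 when a library was left out (4 without DMSO 8 min library 2, and 5 without either DMSO 0 min library). The 0 lower became 14, 11, 11 and 13 with quantile normalization, median-ratio scaling, edgeR and DESeq2. Of all genes within DMSO, 56.9% were called higher with the block, 31% with median-ratio scaling, 27.2% with edgeR and 31.1% with DESeq2. Median-ratio scaling, edgeR and DESeq2 called 26.2%, 26.8% and 29.3% lower. The difference of the effects at 8 and 0 min gave 15 higher members with the replicate block, where 30.2% of all genes were called higher. It gave 1 lower with DESeq2, where 0.617% of all genes were called lower. Of single genes relative to the others, Eno1 reversed with its copies added (−0.53; limma adjusted p = 0.00137), and no planned setting reversed a called gene. Of the 13 called genes, 13 lost the call without the filter, 12 (all but Pfkp) with all 8 libraries scaled together and 2 (Egln1 and Pfkl) without the trended prior, always in the same direction. Hk2 (adjusted p = 0.0346 without DMSO 8 min library 2), Mxi1 (0.0339 without DMSO 8 min library 1) and Slc16a1 (0.0445 with a minimum of 100) passed as lower in those limma settings, and Egln3 (lower) and P4ha1 (higher) each passed with 1 library left out. The cause of these changes was not tested, except that quantile, median-ratio, edgeR and DESeq2 scaling remove a common shift by construction. Deviations of libraries with the same number correlated between groups by 0.021 to 0.466, under the limit of 0.1 in 3 of 6 pairs of groups. The numbers were therefore not taken as pairs in the main tests. A correlation across genes leaves out a shift common to all genes, so it cannot decide whether the numbers pair the libraries. The median log2 difference of number 2 over number 1 was 0.66 with 4OHT and 0.63 with DMSO at 8 min, and 0.79 and 0.16 at 0 min.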
